A study of Homo sapiens with 18 samples.

Results

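The LIM homeobox genes examined here are the 10 genes LHX1, LHX2, LHX3, LHX4, LHX5, LHX6, LHX8, LHX9, ISL1 and ISL2, out of 28395 genes in each RNA-seq table. They were chosen by gene symbol, and the family was picked because LHX3 RNA moved in opposite directions in B-K562 and G-K562 cells, so the RNA values of LHX3 are given as a description with no test. LIM homeodomain proteins are transcription factors with paired LIM domains, which bind cofactors, and a homeodomain, which binds DNA. They are best known for patterning the nervous system, the limbs and the endocrine organs, where LHX3 acts in the pituitary and, with ISL1, in motor neurons. In blood cells the LIM cofactor LDB1 is better known as the partner of LMO2, GATA1 and TAL1.

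K562 is a human leukemia cell line with erythroid features that has little BASP1 of its own, and BASP1 is a corepressor that acts with the WT1 protein. V-K562 is the control line, made with an empty vector. The B-K562 line makes wtBASP1. The G-K562 line makes BASP1-G2A, a mutant whose N-terminus takes no myristoyl group. Each line was 1 stably transfected pool, so the 3 replicates per line are cultures of that pool, and a difference between lines cannot be told apart from a difference between pools. Each of the 3 lines gave 3 RNA-seq and 3 ATAC-seq libraries, and the cells for ATAC-seq were treated with DNase before harvest. The RNA-seq values are normalized counts, that is, read counts divided by the library's size factor and rounded, with totals of 32074895 to 33229588 per library that do not show depth. The ATAC-seq values are summit pileups, the number of tags at the highest point of a peak, in 47111 to 55570 peaks per library.

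BASP1 itself had normalized counts of 5 to 7 in the control libraries. It had 6189 to 6849 in B-K562, and 8124 to 12538 in the G-K562 libraries. All 10 K562 markers were detected, and their summed normalized count ranged from 94246 to 105226 for V-K562, from 162046 to 165041 for B-K562 and from 53197 to 59485 for G-K562. HBG2 alone had 35315 to 41997 in V-K562 and 5347 to 5597 in G-K562. By the limma adjusted p, 9 markers rose in B-K562 and NFE2 fell (38.6% and 37.2% of all genes). In G-K562, 8 fell (33.3% of all genes), TFRC rose by 0.56 on the log2 scale (33.5% rose) and EPOR did not pass. The sum over 4 monocyte markers was 1387 to 1444 in V-K562 and 4097 to 4619 in G-K562, where it rested on LYZ and ITGAM, while CSF1R stayed at 8 or below in all 9 libraries. V-K562 replicate 1 held KRT5 at 145 on the joined scale against 0 in the other V-K562 libraries, and B-K562 replicate 1 held LUM at 62.0 against 1.0 and 3.1. The part of these differences in the results below was not tested, and the members' calls were the same without either of these libraries, except that LHX5 in B-K562 no longer passed the filter on low values without V-K562 replicate 1, so that 0 members were called lower. In such bulk samples fewer cells of a type and less RNA per cell cannot be told apart.

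LHX3 drives development of the anterior pituitary and of motor neurons. Its normalized counts were 29, 22 and 31 in the V-K562 libraries and 1, 4 and 3 in the B-K562 libraries. In the G-K562 libraries they were 116, 97 and 125, against 29, 22 and 32 for V-K562 in that table. All G-K562 libraries lay above all V-K562 libraries, and all B-K562 libraries lay below them. Against V-K562, the mean of log2(value + 1) differed by -3.04 in B-K562 (SDs of 0.25 in V-K562 and 0.69 in B-K562) and by 2.0 in G-K562 (SDs of 0.27 and 0.19). As a ratio of summed normalized counts, LHX3 in V-K562 was 10.3 times that in B-K562, and in G-K562 it was 4.07 times that in V-K562. LHX3 was near the floor of detection in B-K562, so the first ratio rests on a summed count of 8 there. With pseudocount 5 the log2 difference in B-K562 was -2.09.

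LHX1 (chromosome 17, 36937475 to 36944615 of GRCh38, plus strand) is needed for formation of the kidney and the head. Its normalized counts were 3, 2 and 0 in V-K562, 2, 3 and 4 in B-K562, and 209, 260 and 293 in G-K562. The gene was near the floor of detection in the V-K562 and B-K562 libraries and passed the filter on low values through the G-K562 libraries alone, so that a difference was bound to be seen, and without any one of them it was not tested. The fitted log2 fold change from V-K562 to G-K562 was 6.79 (SE 0.43), which depends on the pseudocount and is given as a description.

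LHX5 (chromosome 12, 113462889 to 113472072, minus strand), a relative of LHX1 that acts in the developing forebrain and hypothalamus, had normalized counts of 47, 37 and 49 in V-K562, 1, 4 and 4 in B-K562 and 42, 30 and 33 in G-K562. The B-K562 libraries did not overlap with the V-K562 libraries, whereas the G-K562 libraries did. LHX5 fell in B-K562 by 3.61 on the log2 scale (SE 0.38), and in G-K562 it did not pass the test (log2 fold change -0.37, SE 0.20, limma adjusted p = 0.13). In B-K562 it passed the filter only through the V-K562 libraries, so that this fall, too, is given as a description, and without any one of these it was not tested. LHX5 shares 70 of its exon bases with LHX5-AS1 on the other strand, which was listed at 0 or 1 in every library.

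LHX6 (chromosome 9, 122185652 to 122228893, minus strand) directs interneurons of the forebrain. Its normalized counts were 418, 424 and 415 in V-K562, 872, 914 and 849 in B-K562, and 310, 350 and 283 in G-K562 (against 424, 431 and 423 for V-K562 in that table). The 3 lines did not overlap. LHX6 rose in B-K562 by a log2 fold change of 1.07 (SE 0.063, limma adjusted p = 3.6e-09) and fell in G-K562 by 0.44 (SE 0.095, adjusted p = 0.0015). With libraries rescaled to the same upper quartile the rise was 0.87 and under 2-fold.

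ISL2 (chromosome 15, 76335942 to 76342476, plus strand), which acts in motor neurons and retinal ganglion cells, had the highest level per kb of exon of all members in each line. Its normalized counts were 711, 659 and 687 in V-K562, 475, 455 and 486 in B-K562 and 560, 473 and 574 in G-K562 (against 722, 669 and 701 for V-K562 in that table). ISL2 fell in each line, by 0.54 on the log2 scale in B-K562 (SE 0.066, limma adjusted p = 5.1e-06) and by 0.38 in G-K562 (SE 0.088, adjusted p = 0.0023). The lines carrying BASP1 differed by 0.15 (SE 0.079, adjusted p = 0.089), and by 0.24 without G-K562 replicate 2 (adjusted p = 0.0063). Over all alternatives this difference was 0.10 to 0.31, with limma adjusted p from 0.0026 to 0.295.

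LHX2, LHX4, LHX8, LHX9 and ISL1 did not reach a normalized count of 10 in any library, with a highest value of 4, and no test was made of them. LHX4 shares 323 of its 2214 exon bases with LHX4-AS1, on the other strand, whose normalized counts were 200 to 276 over the libraries, and whether the counting used strand is not given in the sources used here. Reads of such overlapping genes cannot be told apart without strand. LMX1A and LMX1B, the remaining LIM homeobox genes, had at most 2.

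**Figure D1:**
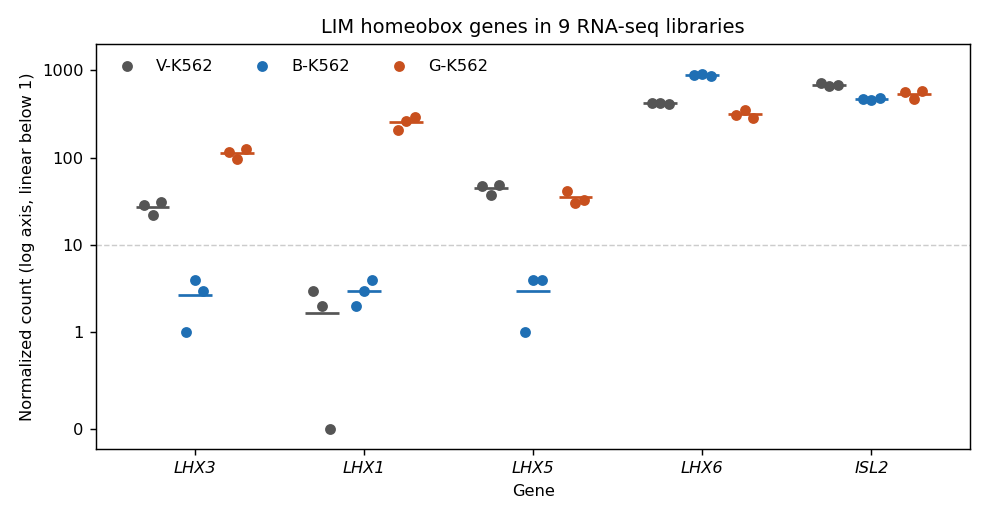
Normalized counts of LHX3, LHX1, LHX5, LHX6 and ISL2 in the 3 V-K562, 3 B-K562 and 3 G-K562 RNA-seq libraries, on a log axis that is linear below 1. Points are libraries, bars are means and the dashed line marks the value of 10 used in the filter. LHX3 and LHX5 lie below 10 in B-K562 and LHX1 lies above 200 in G-K562 alone.

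Calls needed an adjusted p no higher than 0.05 and a change of 2-fold or more. LHX3 was left out of every RNA fit. Of the 9 other members, 3 were tested for B-K562 against V-K562, and 1 of them was called lower (LHX5; 14.1% of all 14957 genes tested were called lower) and 1 higher (LHX6; 6.47% were called higher). For G-K562, 4 were tested, 1 was called higher (LHX1; 8.80% of 15270 genes) and 0 lower (10.3%). By the adjusted p alone, LHX6 rose in B-K562 (38.6% of all genes rose) while LHX5 and ISL2 fell (37.2% fell). In G-K562 LHX6 and ISL2 fell (33.3% fell) and LHX1 rose (33.5%). LHX5 in B-K562 and LHX1 in G-K562 could pass the filter only by differing, so nothing is read from these counts. Over the 3 tested members the median log2 fold change was -0.54 for B-K562, which is the ISL2 value. Over the 4 for G-K562 it was -0.38. The medians over all genes were 0.0072 and 0.0027. With so few members, LHX5 and LHX1 among them, nothing is read from these medians either.

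Between the lines that express BASP1, LHX5 was higher in G-K562 by 3.26 on the log2 scale (SE 0.34, limma adjusted p = 6.6e-07). LHX5 was near the floor in B-K562 (1, 4 and 4) and passed the filter through the V-K562 and G-K562 libraries. Its difference was 2.33 to 3.48 over the alternatives. LHX1 was higher in G-K562 by 5.99 (SE 0.44), and it again passed the filter through the G-K562 libraries alone, so that its call had to be made. LHX6 was lower in G-K562 (log2 fold change -1.51, SE 0.080, limma adjusted p = 4e-10). These counts of 2 higher and 1 lower among 4 tested members stand beside 17.4% of genes called higher and 12.5% called lower. By the adjusted p alone, 38.1% of genes were higher and 40.5% lower. LHX3 RNA, on which the family was picked, was higher in G-K562 by 5.03 and was not tested.

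As a level per kb of exon, G-K562 cells held ISL2 (256.3 normalized counts per kb) above LHX1 (74.1), LHX6 (53.3), LHX3 (36.5) and LHX5 (16.8). In V-K562 the order was ISL2 (333.7), LHX6 (72.2), LHX5 (21.8) and LHX3 (8.96). In each of these orders the libraries of neighbouring genes did not overlap. The median of all detected genes was 205.1 in V-K562 and 214.5 in G-K562, so that only ISL2 lay above it. In B-K562 ISL2 (229.7) lay just below the median of 233.4 and LHX6 stood at 151.5.

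Where LIM homeodomain proteins act, LDB1 and LDB2 bridge LIM proteins, the SSBP proteins stabilize LDB1, LMO proteins compete for LDB1 and RLIM degrades it. All 8 expressed cofactors moved in B-K562 by the adjusted p, with 5 rising and 3 falling, where 38.6% of all genes rose and 37.2% fell. LDB1 had 7315, 7158 and 6934 in V-K562, 9704, 10076 and 10137 in B-K562 and 5346, 5014 and 4692 in G-K562. It rose in B-K562 by 0.48 (log2, SE 0.044, adjusted p = 2.9e-07) and fell in G-K562 by 0.53 (SE 0.060, adjusted p = 1.1e-05).

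LMO2, a blood-forming LIM-only protein, had 1880, 1756 and 1697 in V-K562, 2292, 2463 and 2297 in B-K562, and 749, 848 and 677 in G-K562. It rose in B-K562 by 0.40 and fell in G-K562 by 1.26 on the log2 scale (limma adjusted p = 1.4e-05 and 1.7e-07). LMO4 went the other way, with 1471, 1242 and 1216 in V-K562, 1091, 1056 and 1096 in B-K562 and 2242, 2369 and 2334 in G-K562, and fell by 0.27 in B-K562 and rose by 0.80 in G-K562 (adjusted p = 0.0030 and 2.7e-06). SSBP3 rose in B-K562 by 0.86 and had a log2 fold change of -0.092 in G-K562 (adjusted p = 0.15).

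LDB2 was low, with 32, 25 and 16 in V-K562, 11, 7 and 7 in B-K562 and 1 in each G-K562 library. It fell in B-K562 by 1.42 and in G-K562 by 3.63 on the log2 scale, and in G-K562 it passed the filter only through the V-K562 libraries. SSBP2 and SSBP4 rose in each line, by 0.34 and 0.70 in B-K562 and by 0.58 and 0.57 in G-K562, and RLIM fell by 0.15 in B-K562 and had 0.0042 in G-K562 (adjusted p = 0.96). LMO1 and LMO3 had at most 5 in any library. At the 2-fold threshold, 1 cofactor was called lower in B-K562 (LDB2), 2 in G-K562 (LMO2 and LDB2), and between the lines 3 were lower in G-K562 (LDB1, LDB2 and LMO2) and 1 higher (LMO4). Of all genes, 14.1% were called lower in B-K562, 10.3% in G-K562 and 12.5% between the lines, where 17.4% were called higher. The median over the 8 cofactors, as a log2 fold change, came to 0.37 for B-K562, -0.044 for G-K562 and -0.54 between them, against 0.0072, 0.0027 and -0.023 over all genes.

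**Figure D2:**
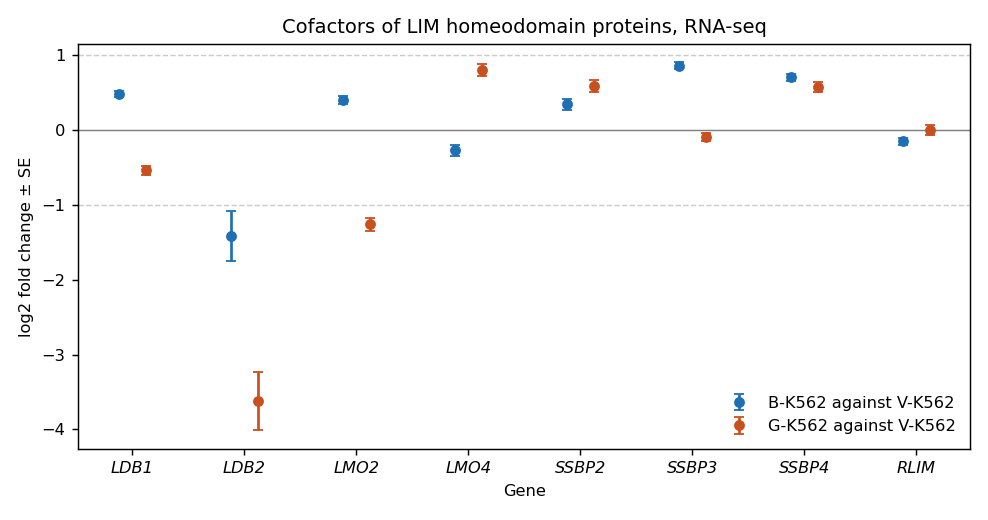
Log2 fold changes with SE (error bars) of the 8 tested LIM cofactors in B-K562 and G-K562 RNA-seq against V-K562, dashed lines at 1 and -1. LDB1 and LMO2 lie above 0 in B-K562 and below 0 in G-K562, and LMO4 the other way.

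In erythroid cells LDB1 sits with GATA1, TAL1 and an E protein. Of 7 such partners, 5 rose in B-K562 and 0 fell by the limma adjusted p (38.6% and 37.2% of all genes), among them KLF1, an erythroid activator, by 0.88, TCF3 by 0.68, and GATA1 and TAL1 by 0.22 and 0.25. In G-K562, 2 rose (LYL1 by 0.60 and CBFA2T3 by 0.53) and 3 fell (KLF1 by 1.48, TAL1 by 0.79 and GATA1 by 0.56), against 33.5% and 33.3% of all genes.

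Of 14 pituitary partners and targets of LHX3, 11 did not pass the filter and were not tested. PITX1, a homeodomain protein of the pituitary, had 1788, 1800 and 1767 in V-K562 and 4564, 4201 and 4090 in B-K562, a rise of 1.26 (SE 0.051, adjusted p = 1.3e-10), and in G-K562 1804, 1622 and 1541. CGA, the shared subunit of the pituitary glycoprotein hormones, had 23, 14 and 19 in V-K562 and 3, 4 and 4 in B-K562, where it fell by 2.06, and HESX1 fell by 0.59. None of these 3 passed the test in G-K562. Of 12 motor neuron partners and targets, 4 were tested, and each of ACHE (acetylcholinesterase) and SLIT2 (an axon guidance ligand) rose in B-K562, by 0.93 and 1.86. In G-K562 ACHE fell by 1.02 and SLIT2 fell by 5.74. SLIT2 had 136, 145 and 107 in V-K562, 450, 459 and 496 in B-K562 and 4, 2 and 0 in G-K562. SLIT3 and MNX1, a motor neuron homeodomain protein, moved the other way. SLIT3 fell by 2.71 and MNX1 fell by 0.60 in B-K562, and they rose by 0.90 and 0.59 in G-K562. CGA and SLIT3 in B-K562 and SLIT2 in G-K562 passed the filter only through the V-K562 libraries. By the adjusted p, 1 of the 3 pituitary genes rose and 2 fell in B-K562. In each line, 2 of the 4 motor neuron genes rose and 2 fell. Of all genes, 38.6% rose and 37.2% fell in B-K562, and 33.5% rose and 33.3% fell in G-K562.

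Among 39 tested genes of 48 other LIM domain proteins, 8 rose and 20 fell in B-K562, and 18 rose and 14 fell in G-K562, by the adjusted p. That is 20.5% and 51.3% of them in B-K562, against 38.6% and 37.2% of all genes, and 46.2% and 35.9% in G-K562, against 33.5% and 33.3%. The largest falls in B-K562 were of FHL1, ABLIM3 and CRIP3. FHL1 had 423, 426 and 533 in V-K562, 7, 10 and 12 in B-K562 and 1300, 1275 and 1448 in G-K562, so it fell by 5.46 in B-K562 and rose by 1.52 in G-K562 on the log2 scale. ABLIM3 had 19 to 23 in B-K562 against 569 to 851 in V-K562, and fell by 4.92. CRIP3 fell in each line, by 3.08 in B-K562 and by 4.07 in G-K562. TGFB1I1 was the only one of these called higher in B-K562, by 1.64, and fell in G-K562 by 1.32. The largest falls in G-K562 after CRIP3 were of FHL2 and TGFB1I1, where FHL2 fell by 3.72, to 108, 100 and 101 from 1320, 1366 and 1341, and the largest rises after FHL1 were CRIP2 (1.37) and ABLIM1 (1.24). CRIP3 and TGFB1I1 passed the filter in G-K562 only through the V-K562 libraries.

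The 5 tested genes whose log2(value + 1) followed LHX3 most closely over the 9 libraries were CES5A, TMEM44, AGPAT4, an unnamed gene with Entrez identifier 105377819, and GABRE, with Pearson r of 0.9953 to 0.9933. This is a description, since the 9 points share their 3 lines, and 1016 of 15520 genes had r of at least 0.95. For CES5A the values were 29, 27 and 36 in V-K562, 6.1, 9.2 and 10.2 in B-K562 on the joined scale, and 64, 54 and 73 in G-K562. Of the members, LHX5 had r = 0.88, LHX1 0.71, ISL2 0.37 and LHX6 -0.97.

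LHX3 lies on chromosome 9 at 136196250 to 136205109 of GRCh38, on the minus strand. Of 16 genes with exons within 250 kb of it, 12 were tested. In B-K562, 7 rose and 3 fell (58.3% and 25%, against 38.6% and 37.2% of all genes), and in G-K562, 3 rose and 5 fell (25% and 41.7%, against 33.5% and 33.3%). The nearest, QSOX2, a sulfhydryl oxidase gene whose 3′ end is 1.22 kb from the start of LHX3, had 2430, 2515 and 2484 in V-K562 and 2385, 2509 and 2561 in B-K562 (log2 fold change 0.0045, adjusted p = 0.94). In G-K562 QSOX2 had 4022, 3808 and 4280, a rise of 0.68 (adjusted p = 1.4e-06). NACC2, a transcriptional repressor gene, rose in each line, by 0.57 in B-K562 and 1.08 in G-K562. C9orf69 rose in each line too, by 0.49 and 0.88. DNLZ was the only neighbour called higher in B-K562 at the 2-fold threshold (1.23), and SNAPC4 and SDCCAG3 rose by 0.95 each.

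**Figure D3:**
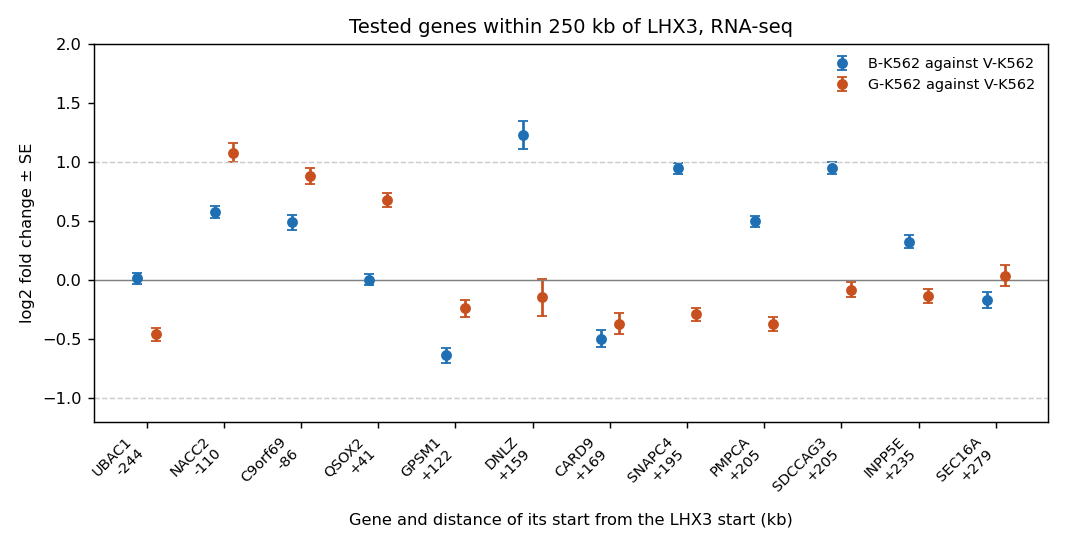
Log2 fold changes with SE (error bars) of the 12 tested genes within 250 kb of LHX3, in the order of their starts along the chromosome, for B-K562 and G-K562 against V-K562. QSOX2, C9orf69 and NACC2 are higher in G-K562. C9orf69, NACC2 and the genes from DNLZ to INPP5E, CARD9 left out, are higher in B-K562.

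ATAC-seq reads open chromatin, where a peak marks DNA that the transposase could reach. Within 5 kb of the 10 members lay 25 regions, 19 of them with peaks in 3 or more libraries and 8 in all 9. LHX3 had 1 such region, chr9:136206518-136207245, with its summit 1643 bp upstream of the LHX3 start, in the 3′ UTR of QSOX2 by GENCODE. Its summit pileup was 96, 87 and 99 tags in V-K562, 43, 33 and 28 in B-K562 and 243, 192 and 228 in G-K562. The 3 lines did not overlap. It was less accessible in B-K562 (log2 fold change -1.58, SE 0.18, limma adjusted p = 0.0021) and more accessible in G-K562 by 0.87 (SE 0.11, adjusted p = 0.00087). The direct comparison gave 2.44 (SE 0.15, adjusted p = 5.9e-06). The same signs were seen under every alternative tried, between -1.72 and -1.21, 0.62 and 1.22, and 1.82 and 2.65. Between 5 and 10 kb from LHX3, a region past its 3′ end had peaks in the B-K562 libraries alone, with 32, 34 and 35 tags. It passed the filter only through B-K562, and its log2 fold change of 0.87 from V-K562 depends on the value of 17 given to absent peaks. Another, 8811 bp upstream of the LHX3 start, passed the test in neither line (log2 fold changes of -0.39 and 0.30).

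LHX1 had a region 2563 bp upstream of its start, in an intron of the transcript LHX1-DT. Peaks were called there in all G-K562 libraries, with pileups of 42, 45 and 55 tags, in B-K562 replicate 1 with 18, and in no V-K562 library. Against V-K562 the region passed the filter only through the G-K562 libraries and was not tested without any one of them, and its log2 fold change of 1.24 from V-K562 (SE 0.16) depends on the value of 17 given to libraries with no peak. Between the lines the region could not pass the filter without the G-K562 libraries, and its difference depends on that value too. The 300 bases around its summit follow, because LHX1 had the largest RNA difference of the tested members.

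LHX1 upstream region, chr17:36934762-36935061, plus strand: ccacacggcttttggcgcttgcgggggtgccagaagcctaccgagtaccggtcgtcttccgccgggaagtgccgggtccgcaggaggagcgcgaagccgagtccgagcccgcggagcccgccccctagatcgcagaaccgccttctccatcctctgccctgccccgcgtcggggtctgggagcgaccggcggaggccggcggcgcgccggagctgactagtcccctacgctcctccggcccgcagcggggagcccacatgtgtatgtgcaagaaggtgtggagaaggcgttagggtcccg

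LHX6 had a region across its exons (chr9:122213532-122214468) with 92, 108 and 97 tags in V-K562, 158, 180 and 154 in B-K562 and 180, 187 and 218 in G-K562. It was more accessible in each line, by 0.57 in B-K562 and by 0.62 in G-K562 (limma adjusted p = 0.0077 and 0.0030). LHX6 RNA rose in B-K562 and fell in G-K562. A region in an intron of MORN5, past the 3′ end of LHX6, had 38, 70 and 50 tags in V-K562, 53, 36 and 40 in B-K562 and 27, 22 and 34 in G-K562, where it fell by 1.22 (SE 0.26, adjusted p = 0.0077).

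The RefSeq start of ISL2 was open in all 9 libraries, with 91, 105 and 98 tags in V-K562, 135, 150 and 137 in B-K562 and 170, 182 and 214 in G-K562. In these unscaled tags the 3 lines did not overlap. After scaling, the region was more accessible by 0.37 in B-K562 (SE 0.10, limma adjusted p = 0.031) and 0.59 in G-K562 (SE 0.11, adjusted p = 0.0046). ISL2 RNA fell in each line. In B-K562 the adjusted p reached 0.103 over the alternatives. The direct comparison of G-K562 with B-K562 did not pass for this region (log2 fold change 0.20, SE 0.099, adjusted p = 0.18). Of the RefSeq upstream windows, which LHX1 and LHX5 lack, the ISL2 window was the only one with a peak in more than 4 libraries. Outside those windows, a region 195 bp upstream of the LHX6 start in the RNA-seq tables had peaks in 6 libraries. Another, 893 bp past the LHX4 start in those tables, had peaks in 8. LHX5 had a region in its 3′ UTR with 65, 43 and 69 tags in V-K562, 67, 46 and 56 in B-K562 and 70, 37 and 71 in G-K562, where the lines overlapped and neither comparison passed (log2 fold changes of -0.20 and -0.37). A region in an LHX4 intron that overlaps a UTR of ACBD6 had 71, 70 and 69 tags in V-K562, 40, 39 and 30 in B-K562 and 92, 68 and 78 in G-K562, and was less accessible in B-K562 by 1.09 (adjusted p = 0.0048). A region past the 3′ end of LHX9 had peaks in all V-K562 and G-K562 libraries and none in B-K562 (log2 fold change -1.08, with absent peaks set to 17). Against V-K562 it passed the filter in B-K562 only through the V-K562 libraries and was not tested without any one of them.

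**Figure D4:**
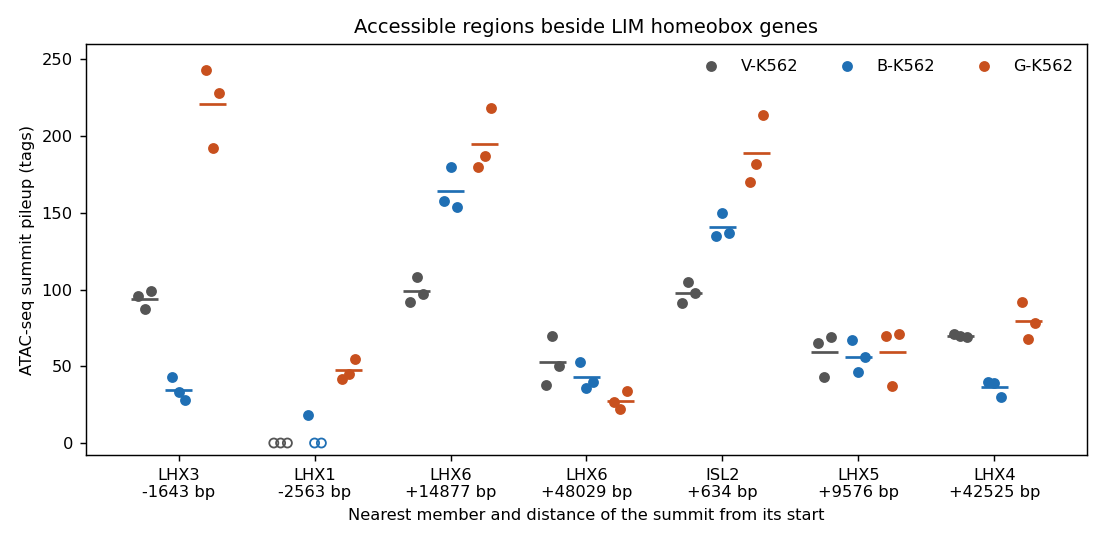
ATAC-seq summit pileups (tags) of 7 regions beside LHX3, LHX1, LHX6, ISL2, LHX5 and LHX4 in the 9 libraries, by line. Points are libraries, bars are means of lines with 3 called peaks, and open circles mark libraries with no called peak, whose tags are not known. The LHX3 region lies above V-K562 in G-K562 and below it in B-K562.

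A region in an intron of LHX2 had 22, 21 and 25 tags in V-K562, 36, 27 and 40 in B-K562 and 42, 45 and 45 in G-K562, where it was more accessible by 0.59 (adjusted p = 0.025). LHX8 had a region with 18 to 29 tags in 4 libraries, and the region at the start of ISL1 had a peak in B-K562 replicate 3 alone, at 17 tags. A region near LHX1 at the start of AATF, an apoptosis gene, had 77 to 113 tags in V-K562 and 174 to 196 in G-K562 (log2 fold change 0.57, adjusted p = 0.021). Over the alternatives the adjusted p in G-K562 reached 0.10 for the LHX2 region and 0.070 for the AATF region.

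Of the regions within 5 kb, 14 were tested in B-K562, where 3 were called less accessible, the LHX9 region among them (6.15% of all 52204 regions tested) and 0 more accessible (1.53%). In G-K562, 18 were tested, and 1 was called less (13.1%) and 1 more accessible (2.87%). Between the lines, 19 were tested, and 0 were called less (8.60%) and 2 more accessible in G-K562 (4.28%), the regions upstream of LHX3 and LHX1. In either comparison the LHX1 region could not pass the filter without the G-K562 libraries. By the adjusted p alone, 3 were less and 2 more accessible in B-K562 (16.6% and 8.58% of all), 1 less and 7 more in G-K562 (26.0% and 15.9%; 2 of the 7, beside LHX1 and LHX9, passed the filter only through G-K562), and 1 less and 4 more between the lines (15.6% and 12.3%). Over the tested regions the median was -0.25 (log2) for B-K562 and 0.12 for G-K562, against -0.061 and -0.095 over all regions.

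The sequences before RefSeq starts of LHX3 and ISL2 are shown. LHX3 is the member picked for its opposite directions, and ISL2 the one whose RefSeq window held a peak in all 9 libraries. The RefSeq window upstream of ISL2, 76336523 to 76336772, lies inside the gene interval that the RNA-seq tables give, and the open region, 76336306 to 76336936, covers it. The ISL2 sequence is printed up to the first base of an exon in those tables. In the first and the last no motif was found, and in the other one the capitals mark a match to the WT1 or EGR core GCGTGGG, on either strand. RefSeq gives LHX3 3 starts, and no peak was called over any of the 3 upstream windows of 250 bases.

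LHX3 start 1, chr9:136205129-136205378, minus strand: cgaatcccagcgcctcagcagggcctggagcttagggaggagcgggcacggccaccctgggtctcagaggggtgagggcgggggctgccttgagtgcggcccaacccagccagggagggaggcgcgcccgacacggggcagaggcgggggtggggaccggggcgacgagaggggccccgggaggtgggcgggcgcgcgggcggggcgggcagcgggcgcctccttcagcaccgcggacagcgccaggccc

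LHX3 start 3, chr9:136201675-136201924, minus strand: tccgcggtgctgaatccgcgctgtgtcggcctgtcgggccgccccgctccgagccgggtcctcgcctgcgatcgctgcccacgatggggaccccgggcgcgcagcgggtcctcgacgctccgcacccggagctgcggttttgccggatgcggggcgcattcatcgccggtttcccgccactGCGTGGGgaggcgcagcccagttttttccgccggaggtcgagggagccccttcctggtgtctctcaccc

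ISL2 start, chr15:76336523-76336723, plus strand: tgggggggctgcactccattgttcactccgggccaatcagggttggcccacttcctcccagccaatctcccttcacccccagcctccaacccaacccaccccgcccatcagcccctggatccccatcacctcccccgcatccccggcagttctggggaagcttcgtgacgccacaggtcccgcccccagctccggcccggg

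The letters searched were TAATTA (LIM homeodomain core), GCGTGGG (WT1 or EGR core), GATAA (GATA core) and CAGCTG (E-box), each on either strand, and no 2 matches overlapped. Of all 35116 RefSeq upstream windows, 4.35%, 6.19%, 20.4% and 14% held them in that order. Of the 300 bases around the summits of all 85549 regions, 4.16%, 4.42%, 39.4% and 20.8% did. The LHX1 upstream sequence and the ISL2 sequence held none of them, and of the LHX3 windows start 3 held the WT1 or EGR core. The same core was also found in upstream windows of LHX6 and LHX8, which are not shown. These matches are letters in a window and not sites. Per base, the LHX1 sequence had 70.7% G or C with 36 CG pairs, and LHX3 start 1 78.4% with 26.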

How the data were processed

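RNA-seq and ATAC-seq libraries, 3 per line and assay, were grouped by their labels. The members and gene lists were chosen with earlier results of these data known. The authors mapped RNA-seq reads to GRCh38, used Subread to count them on RefSeq genes, and deposited each count scaled by its library's DESeq2 size factor and rounded (a score here, not raw counts), in 1 table per BASP1 line with V-K562. The deposited tables also hold the authors' fold changes and p-values, which were not used. The ATAC-seq signal was deposited by the authors as pileups of peaks called per library with MACS2, after sampling to equal tags.

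Genes that reached 10 in 3 or more libraries were tested with limma 3.58.1 (R 4.3.3) on log2(value + 1), with a variance trend and p-values adjusted by Benjamini-Hochberg over all genes. B-K562 values were multiplied by 1.017 to join the tables for the comparison of G-K562 with B-K562. Peaks were merged into 85549 regions, scaled by a trimmed mean, and absent or lower pileups set to 17. Regions with a peak in at least 3 libraries were tested in the same way. The scripts were tested on simulated data. Regions were placed by GENCODE and the RNA-seq tables' exons, and interval starts were read as counted from 0. Promoter sequences are those of RefSeq (GRCh38), with entries for 8 of the 10 members, and the LHX1 region is from the GRCh38 genome. Figures used Python 3.11.15 with matplotlib 3.10.9. Named genes are the members, the tested genes of the short lists, the 3 largest rises and falls among other LIM domain proteins, the 5 genes most like LHX3, and its neighbours within 250 kb, not all of which are named.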

Additional observations from a re-analysis of the deposited data

Results flagged for a closer look

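In the direct test of G-K562 against B-K562, 3 members, 4 cofactors and 2 regions differed at the 2-fold threshold. Of all genes, 17.4% were called higher and 12.5% lower in that test. Of all regions, 4.28% were called more and 8.60% less accessible. By the adjusted p alone, all 8 tested cofactors differed, 3 higher and 5 lower, where 38.1% of all genes were higher and 40.5% lower. Among the members called at that threshold, the log2 differences, G-K562 minus B-K562, were 5.99 for LHX1, 3.26 for LHX5 and -1.51 for LHX6. LHX1 passed the filter through G-K562 alone, and LHX5 was near the floor in B-K562. For the cofactors they were -1.02 for LDB1, -2.22 for LDB2, -1.66 for LMO2 and 1.07 for LMO4. LDB2 was low in both lines, with 11, 7 and 7 in B-K562 and 1 in each G-K562 library. It could not pass the filter without the V-K562 libraries. The region upstream of LHX1 differed by 1.20 and the region upstream of LHX3 by 2.44. The LHX1 region could not pass the filter without the G-K562 libraries. Its difference, 1.09 to 1.67 over the alternatives, depends on the value of 17 given to libraries with no peak. For LHX3 RNA every B-K562 library lay below and every G-K562 library above V-K562, with a difference of 5.03, and that difference was not tested.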

How the results depend on the processing

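Counts of called members and regions rest on few features. Leaving out each library in turn, with the filter applied to the remaining libraries, gave 0 to 1 members lower in B-K562, 0 to 1 higher in G-K562 and 1 to 2 higher between the lines, 1 to 2 cofactors lower in G-K562 and 2 to 3 between the lines (LDB1 fell short of 2-fold without G-K562 replicate 3), 2 to 3 regions less accessible in B-K562, 0 to 1 more accessible in G-K562, and otherwise the reported counts. The lower counts of members, of cofactors in G-K562 and of regions in G-K562 came without any one V-K562 library (LHX5, LDB2) or any one G-K562 library (LHX1 and its upstream region), because these passed the filter in exactly 3 libraries and were then not tested. Keeping the tested features as with all libraries, an alternative chosen after these losses were seen in the data, gave 1, 1, 2 and 2 in every case, and 1 region more accessible in G-K562. With a value of at least 10 in every library, LHX5 and LHX1 were no longer tested, so 0 members were called lower in B-K562, 0 higher in G-K562 and 0 higher between the lines, and LDB2 was lost, leaving 0 cofactors lower in B-K562 and 1 in G-K562. Under upper quartile rescaling, which moved the median of all genes in B-K562 from 0.0072 to -0.19, LHX6 rose by less than 2-fold and 0 members were called higher. By the adjusted p alone, 2 members were lower in B-K562 and 2 in G-K562; 3 cofactors were lower and 5 higher in B-K562, 3 were higher in G-K562, and 5 were lower and 3 higher between the lines. For regions the adjusted p alone gave 2 more accessible in B-K562, 7 in G-K562, and 1 less and 4 more between the lines. Mean pileups gave 1 region less accessible in B-K562. Without scaling, which moved the median region in G-K562 from -0.095 to 0.19, 0 were less and 2 more accessible in G-K562 and 4 more between the lines. A floor at the lowest summit pileup gave 3 and 4 more accessible, and a peak in every library 0 and 1. With pseudocount 5 the LHX3 difference was -2.09 in B-K562.

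Replicate numbers did not pair the libraries, with correlations of same-numbered deviations from -0.0966 to 0.145, and a replicate block changed no call of members, cofactors or regions at the 2-fold threshold, with LHX6 at 1.07 and LHX5 at -3.61 in B-K562. By the adjusted p alone, the replicate block lost the LHX2 region in G-K562 (adjusted p = 0.064) and, between the lines, the MORN5 region past LHX6 (0.065), SSBP4 (0.056) and CRIP3 (0.056).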
